A study of Oryza sativa with 3 samples.

Results

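The fragments of transfer RNAs listed for rice uninucleate microspores (UNM), the haploid spores formed by meiosis before their first mitosis, are described here as a repertoire of 1 library. All sequences of the deposited UNM list were taken, which gave 5477 distinct sequences out of 18424 in the whole series. The later stages have lists of their own, with 14717 sequences at the bicellular stage of the pollen (BCP) and 8633 at the tricellular stage (TCP). The plants were Oryza sativa of the cultivar Guichao No.2, grown in the field without a treatment that the labels name, and total RNA was the starting material at all 3 stages. The labels describe the spores of this library as uninucleate microspores under the tissue name pollen. The list holds tRNA fragments only, so the stage could not be checked against marker genes. With 1 library there is no replicate check: the values below are shares of the listed reads with exact Clopper-Pearson 95% intervals, which cover counting error only, and no test was possible.

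Transfer RNAs carry amino acids to the ribosome, and their anticodon, in a loop near the middle of the molecule, reads the codon of the messenger RNA. Cuts in the anticodon loop give long fragments that reach from an end of the tRNA to this loop, and cuts in or beside the D loop, nearer the 5′ end, give shorter 5′ fragments. In Arabidopsis, RNase T2 enzymes have been linked to both kinds of cut. Several tRNAs with different anticodons can carry the same amino acid, and these are called isoacceptors. Short tRNA fragments have been found in the pollen of other plants, among them Arabidopsis.

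Most reads of the library belonged to a few starting points. Sequences were joined into a same-start series when they shared the amino acid and the first 13 bases, so that a series holds fragments that begin at 1 base and end at different ones. Series are numbered by their reads. The 10 largest are shown because they hold 85.1% of all reads (84.98 to 85.2). Capitals mark the most abundant fragment, and lower case shows how far the longest listed fragment of the series continues towards the anticodon.
Ala 1: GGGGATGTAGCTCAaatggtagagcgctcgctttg
Ser 2: GGATGGATGTCTGAGCGGttgaaa
Glu 3: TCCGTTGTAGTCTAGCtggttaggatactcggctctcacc
Ala 4: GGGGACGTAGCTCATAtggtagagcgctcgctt
Gly 5: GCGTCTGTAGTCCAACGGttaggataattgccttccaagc
Ala 6: GAGGTACGGGGATCgatacc
Ser 7: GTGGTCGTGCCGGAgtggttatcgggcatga
Ala 8: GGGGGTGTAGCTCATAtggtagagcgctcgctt
Met 9: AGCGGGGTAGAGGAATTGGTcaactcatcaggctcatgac
Gly 10: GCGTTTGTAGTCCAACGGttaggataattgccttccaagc
Of these 10 series, 9 begin at the first base of a mature tRNA, as read from the sequence, and Ala 6 does not. For Met 9 this rests on a looser rule than for the others, described below.

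The list held 686685 reads over 50 anticodons and all 20 amino acids, with lengths of 10 to 40 nt. Only 6 sequences held 50% of the reads, 30 held 80%, 90 held 90% and 1458 held 99%. At the other extreme, 2455 sequences were read once, which is 44.8% of the sequences and 0.358% of the reads. The repertoire thus combined a small abundant core with a long tail of rare sequences. Weighted by reads (the inverse of the summed squared shares), it was as diverse as 18.8 equally abundant sequences. Of the 5477 sequences, 3920 (71.6% of UNM, 26.6% of BCP) were also listed in bicellular pollen and 3010 (55.0% of UNM, 34.9% of TCP) in tricellular pollen. The sequences shared with BCP held 98.6% of UNM reads, and the 1237 sequences found in neither list held 0.370%. What the UNM list alone held was thus rare in it.

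Reads were split unevenly between amino acids. Fragments of tRNA-Ala, tRNA-Ser, tRNA-Glu and tRNA-Gly held 89.9% of the reads in total. Ala had 323384 reads (47.1%, 47.0 to 47.2), Ser 140060 (20.4%, 20.3 to 20.5), Glu 109884 (16.002%, 15.9 to 16.1) and Gly 43872 (6.39%, 6.33 to 6.45). Met, Gln, Asp, His and Arg followed with 1.01% to 1.83% each, and the other 11 groups stayed below 1%. The rarest were Lys with 551 reads, Trp with 247, Ile with 115 and Asn with 67. The number of distinct sequences ranged from 42 in Asn to 721 in Ser. Ala had 290, while Gln had 539 with 9061 reads and Arg 481 with 6949.

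How strongly a group rested on single fragments also differed. Glu reads were as concentrated as if only 2.31 sequences were used equally, since its 16-nt fragment of series Glu 3 alone held 71550 reads, 65.1% of the group. Met was as narrow, at 2.23 effective sequences and with 65.1% of its reads in a single 20-nt fragment. His (3.28), Arg (3.48) and Ser (3.50) came next. Gln, at 43.0, and Lys, at 47.8, were the broadest groups, and the most abundant Gln sequence held 7.30% of Gln reads. Counting series gave another order for some groups. It took 2 series to reach 90% of the reads in Glu, Gly and Asp, 3 in Ala, Ser and Met, but 24 in Gln, 28 in Arg and 29 in Lys, with a median of 9.5 over the 20 groups. Arg was thus narrow by effective sequences but needed many series, and Asp, with 11.3 effective sequences, needed few.

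Fragment length was examined within each group. In all 20 groups most reads were at most 20 nt long, yet the most frequent length was particular to the group. It was 14 nt for Ala (33.8% of its reads), 18 nt for Ser (45.5%), 16 nt for Glu (66.2%) and 18 nt for Gly (47.7%). Met and His both had their maximum at 20 nt, with 66.3% and 54.6%. Arg peaked at 19 nt (55.8%), Pro at 16 nt (50.4%), Cys at 19 nt (32.2%), Tyr at 15 nt (25.1%) and Val at 14 nt (37.8%). The 8 groups Gln, Leu, Phe, Thr, Lys, Trp, Ile and Asn had their maximum at 13 nt, the shortest length the label gives, and sequences under 13 nt were only 4 with 234 reads. Asp was the 1 group with a maximum near the anticodon, at 33 nt (16.02%).

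Long fragments, taken as 30 nt or more, were 27718 reads in all. Asp had the highest share of them, at 40.3% of its reads, followed by Cys (33.1%), Thr (31.9%), Lys (29.2%), Trp (25.5%) and Gly (17.4%). Ala had the lowest, with 122 long reads of 323384, or 0.0377%, and Arg (0.662%), Ser (0.955%) and Val (1.16%) were also nearly free of them. Fragments of intermediate length, 21 to 29 nt, stayed under 10% in every group but Asn, where 23.9% rests on 67 reads. The map of fragment length by amino acid shows these maxima side by side.

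**Figure D1:**
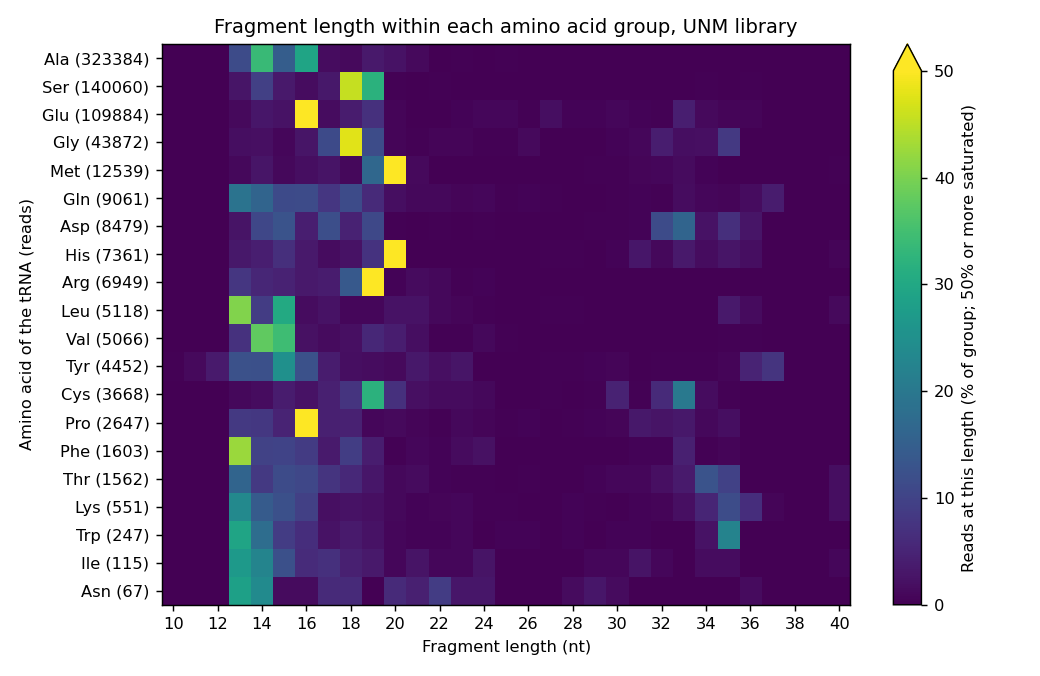
Share of each amino acid group's reads (colour, in percent, saturated at 50%) at each fragment length in nt, with the groups ordered by reads, which stand in parentheses. Each group but Asp has its brightest cell between 13 and 20 nt, and a maximum between 33 and 37 nt is visible in Trp (22.3%), Cys (20.1%), Asp (16.02%), Thr (12.8%), Lys (11.6%), Gly (8.23%) and Tyr (7.46%).

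Reads were also concentrated when counted by series. There were 1766 series, of which 793 held a single sequence, with 0.352% of the reads, and the 141 series with at least 100 reads held 97.95%. The first 3 held 64.8% and 18 were enough for 90%. Within the 10 largest lay 191 distinct sequences. Over the library, 53.7% of reads (53.6 to 53.8) ended at the most used 3′ end of their series. Among the 141 series this share had a median of 59.1%, passed 50% in 90 of them and passed 80% in 25. A preferred 3′ end was thus usual, and an exclusive one was not.

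The leading series, Ala 1, held 237927 reads, 34.6% of the library and 73.6% of Ala. It had no single dominant end: 28266 reads were 13 nt long, 77576 were 14 nt, 41668 were 15 nt and 62280 were 16 nt. Above 16 nt its reads dropped to 4891 at 17 nt and 2295 at 18 nt, rose again to 8762 at 19 nt and then thinned out. Only 97 of its reads were 30 nt or longer. Series Ala 4 differs from Ala 1 within the first 13 bases by T6C and Ala 8 by A5G, written as base in Ala 1, position from the first base, base in the other series. With 34084 and 13231 reads they were much more focused, at 65.8% and 62.8% on the 16-nt end. The length profiles of Ala 4 and Ala 8 overlapped by 87.6%, meaning the summed smaller share at each length, against 55.9% between Ala 1 and Ala 4 and 63.3% between Ala 1 and Ala 8.

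Ser 2, of the isoacceptor Ser-TGA, had 108029 reads in a pair of neighbouring ends, 57.5% at 18 nt and 36.4% at 19 nt. Its longest listed fragment was 24 nt. Ser 7, of Ser-AGA, had 15086 reads and ended earlier, with 76.5% at 14 nt. The series Ser 11, of Ser-GCT, had 6827 reads with 76.4% at 19 nt. The largest series of each of these 3 anticodons thus had its own preferred end, in each case at 20 nt or less.

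Glu 3, of Glu-CTC, had 98736 reads. Its 16-nt fragment held 72.5% of them, and the neighbouring ends of 15 and 17 nt held 1.01% and 0.689%, so this end was used to within a single base. Smaller maxima followed at 19 nt (7361 reads), 27 nt (1997) and 33 nt (4471, 4.53%). The other glutamate isoacceptor, Glu-TTC, was led by Glu 16 with 4177 reads, which differs from Glu 3 by G4A and A9C within the first 13 bases and was spread over ends at 14 nt (35.7%), 16 nt (17.4%), 17 nt (15.4%) and 34 nt (12.3%). The profiles of the pair overlapped by 26.8%.

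Gly 5 and Gly 10 are both Gly-TCC and differ by C5T. They had 30942 and 9984 reads, and their length profiles overlapped by 91.4%: both peaked at 18 nt (50.8% and 49.7%) and both had a second maximum at 35 nt (9.32% and 6.27%). Met 9, with 10610 reads, ended at 20 nt in 76.9% and at 19 nt in 18.0% of its reads. The label Met-CAT does not separate the initiator tRNA from the elongator.

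**Figure D2:**
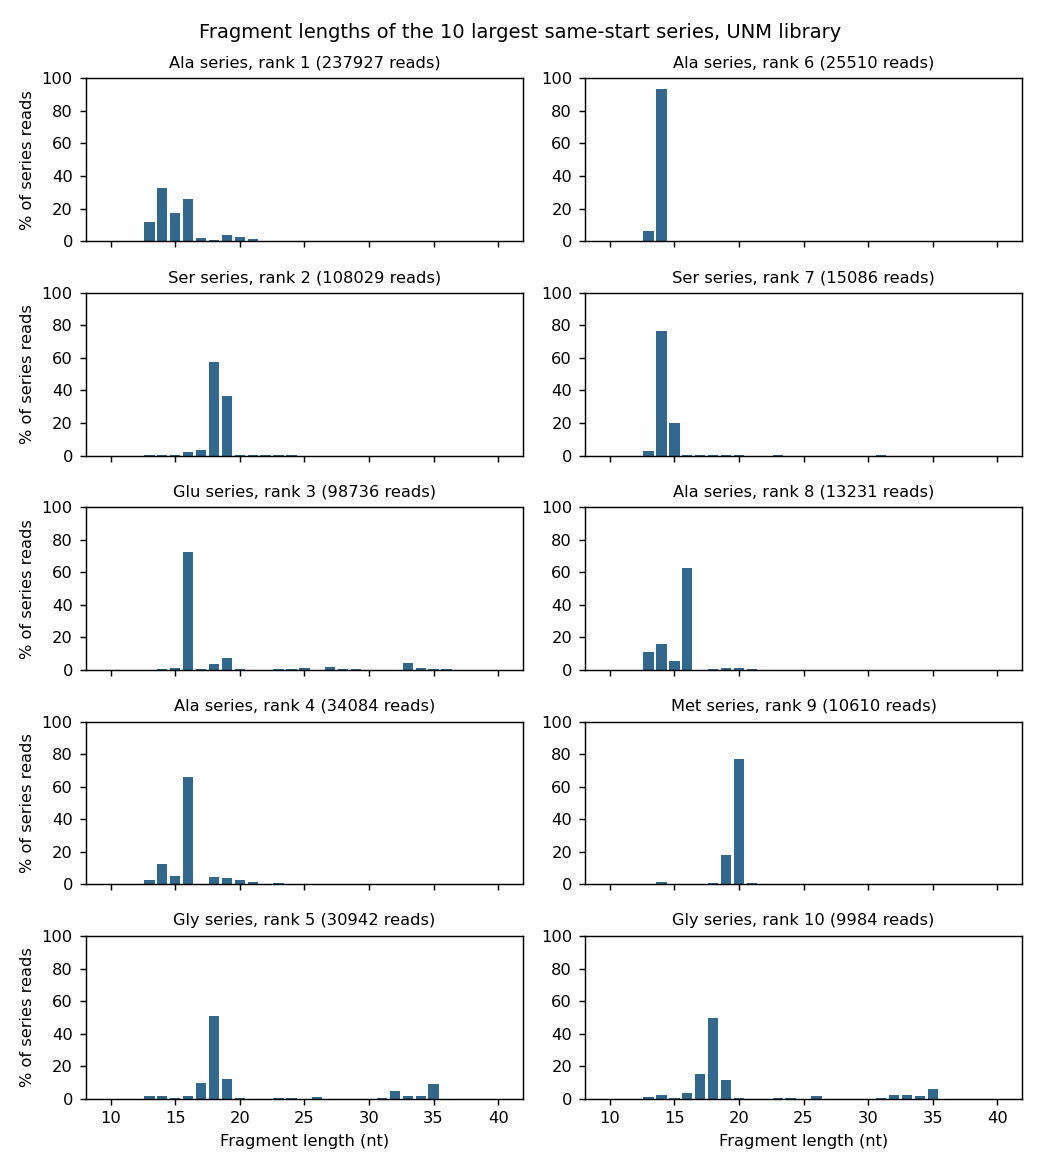
Share of series reads (vertical axis, in percent) by fragment length in nt for the 10 series with the most reads, in the order of their rank. Ala 1 is spread over 13 to 16 nt, Ser 2 lies at 18 and 19 nt, Glu 3 and Ala 4 stand at 16 nt, and Gly 5 and Gly 10 share maxima at 18 and 35 nt.

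Series differed in whether they held short fragments, long ones or both. The 10 largest, all led by short reads, also held 51.1% of the long reads of the library, among them 7190 in Glu 3, 5554 in Gly 5 and 1247 in Gly 10. Of the 141 series, 122 had most reads at 20 nt or less and 14 had most at 30 nt or more, while 35 had at least 5% of reads in each of both classes. In Cys, the largest series led by short reads and the largest led by long reads both carry the label Cys-GCA. Labels do not separate nuclear from organellar tRNAs, here or for any other anticodon, and such origin was not scored. Cys 29 had 1313 reads, 95.4% of them at most 20 nt, and Cys 30 had 1206 reads, 98.4% of them at least 30 nt. Series are split by their start, and short Cys reads also came from within the Cys 30 sequence. Examples are Cys 102 (153 reads, 98.0% at most 20 nt) and Cys 125 (116 reads, 99.1%). Cys 29 and Cys 30 are shown with the most abundant fragment in capitals.
Cys 29: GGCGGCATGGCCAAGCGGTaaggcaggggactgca
Cys 30: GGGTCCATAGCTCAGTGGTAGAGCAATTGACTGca
In Asp the division between the largest series was partial. The 4901 reads of Asp 12 were 67.9% long with the maximum at 33 nt, but 30.9% of them were at most 20 nt. The 3011 reads of Asp 17 had none of 30 nt or more. Tyr 47 (98.5% long), Leu 96 of Leu-CAA (97.5%), Pro 54 of Pro-CGG (68.8%), Ser 25 of Ser-GCT (66.9%) and Gln 37 of Gln-CTG (69.4%) were further series led by long reads.

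The last base kept and the base that would have followed were read off for the 42 series with at least 100 reads that begin at position 1 by their sequence. The most used fragment ended in A in 17 of them, in G in 11, in C in 9 and in T in 5. The base after it was T in 19, G in 11, A in 7 and C in 1, and 4 series listed no longer member. These are counts of series, and several share most of their sequence, as the Ala and Gly series do. The start was read from a motif, given below, that requires A at position 14. A most used fragment of 14 nt therefore had to end in A, and 1 of 13 nt had to be followed by A. The base composition of the tRNAs was not set beside these counts, so no preference for a base is drawn from them.

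The place of a fragment on the tRNA was read from conserved bases of the D arm (positions 8 to 14, with T at 8, a purine, any base, a pyrimidine, any pair of bases and A at 14). By this motif 81.9% of reads (81.8 to 82.0) began at positions 1 to 3, and nearly all of these at position 1, with 554849 reads or 80.8%, against 0.872% at position 2 and 0.240% at position 3. Reads too short to show the whole motif that belong to such a series added 4.92%. Fragments with only the T and the A of the motif, such as Met 9 and Glu 16, added 2.28%. A further 2.05% of reads (14073, in 1248 sequences) lay inside a longer 5′ fragment of the list, and 8.12% (55789 reads, 2752 sequences) could not be placed. The 5′ end thus held few distinct sequences and most reads, and the unplaced remainder held many sequences and few reads. As a check, the full motif was also sought at starts 4 to 6 in sequences it did not place at 1 to 3. It fitted there in 0.362% of all reads and 6.94% of all sequences. True starts at these positions and accidental fits were not separated, so small shares such as that of position 3 are uncertain.

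Groups differed in where their fragments lay. Gly (97.8%), Glu (96.5%), Asp (96.3%), Ser (95.7%), Met (93.5%), Val (90.9%) and Ala (89.2%) were mostly 5′ by these criteria together. In Met the full motif alone placed only 5.93% of reads at positions 1 to 3. In Gln and Tyr the larger part lay inside, 58.6% and 58.9%, as did 38.5% in Trp and 29.1% in Cys. Thr (97.8%), Lys (94.9%), Ile (86.1%), Phe (79.2%), Asn (58.2%) and Trp (55.9%) were mostly unplaced. Unplaced reads include fragments of the 3′ side of the tRNA and of tRNAs that lack the motif, and these were not separated here. Some of them, as in Phe and Thr, open longer listed fragments that carry a motif of the 3′ side, given below.

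**Figure D3:**
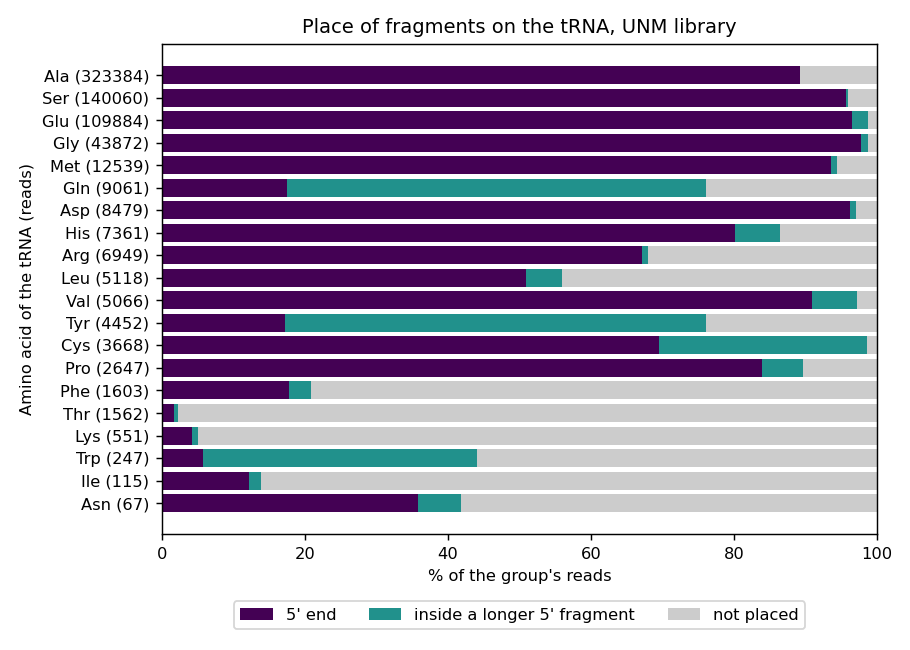
Share of each amino acid group's reads, in percent, that were placed at the 5′ end, inside a longer 5′ fragment, or not placed, with the reads of each group in parentheses. The 5′ end fills most of the bar in the groups with the most reads, while Gln and Tyr lie mainly inside and Thr and Lys are nearly all unplaced.

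tRNA-His is a special case, since most organisms add or encode an extra G before its first base. In the leading His fragments, reads with this G numbered 4641 (90.9%, 90.03 to 91.6) and reads of the same sequence without it 467. The most abundant form of each is shown, with the extra base in capitals.
His with the extra G: Ggcggatgtagccaagtgga
His without it: gcggatgtagccaagtgga
The first is 20 nt long with 4011 reads and the second 19 nt with 357, so both stop at the same 3′ base. In Glu, the 33-nt fragment with 4461 reads was accompanied by forms with the same 3′ end and fewer 5′ bases. There were 231 reads that began at position 2, 323 at position 3, 760 at position 4, 117 at position 5 and 13 at position 6. Each of these shorter forms had fewer reads than the full one.

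Away from the 5′ end, fragments also formed families with different starts and a common 3′ end. The families described here are shown as the longest member, in which the most abundant member stands in capitals.
Ala-AGC: catgcgaGAGGTACGGGGATC
Tyr-GTA: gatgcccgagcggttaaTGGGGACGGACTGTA
Gln-CTG: tctagcggttAGGACATTGGACTC
The Ala-AGC family, which contains the leading fragment of Ala 6, had 29157 reads in 9 sequences of 13 to 21 nt, and its 14-nt form held 81.8%. Its place on the tRNA was not assigned by the D-arm motif. Longer listed fragments with the same start continue it to ATCGA. A family like it, labelled Ala-TGC (1011 reads), is continued to TTCGA, the T-arm motif of the 3′ side used below. By this likeness the Ala-AGC family would lie at the T arm, though it was not counted there. The Tyr-GTA family had 1627 reads in 19 sequences of 13 to 32 nt, which all end at position 37, the last anticodon base, and 325 further reads ran from the 5′ end to this base. The Gln-CTG family had 1756 reads in 15 sequences of 13 to 24 nt ending at position 34, the first base of the anticodon. A second Gln-CTG family, with 1502 reads in 15 sequences, ended a single base earlier at position 33. Of the 14053 reads inside a longer fragment at 1 possible position, 87.3% ended at position 30 or later. This share is partly set by the rule, which needs a listed 5′ fragment around the read. The 41.9% that began at position 20 or later could hardly end earlier, since nearly all reads are 13 nt or more. Fragments that run past the longest 5′ fragments are not in this class, so no preference for this region is drawn from it.

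Long fragments were next set against the anticodon. Of the 27718 reads of 30 nt or more, 91.1% (90.8 to 91.4) were 5′ fragments and 3.09% lay inside one. Another 5.31% (1471 reads, 339 sequences) carried the T-arm motif (TTC, a purine, A), which lies on the 3′ side, and 0.498% were none of these. The anticodon could be found in 12 series with at least 100 long reads, and the 5 with the most reads from different tRNAs are shown with the anticodon in capitals.
Glu-CTC: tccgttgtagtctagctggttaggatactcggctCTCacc
Gly-TCC: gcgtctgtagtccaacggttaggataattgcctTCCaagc
Asp-GTC: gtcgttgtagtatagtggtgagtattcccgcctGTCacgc
Cys-GCA: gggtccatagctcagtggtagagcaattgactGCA
Ser-GCT: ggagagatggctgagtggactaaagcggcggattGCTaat

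The anticodon position was known for 22621 long reads, 81.6% of them, from 33 series and 21 tRNAs. Of these, 55.6% ended before the anticodon, 38.9% at its first or second base, and 5.46% at its last base or beyond. The most used ends were 2 bases before the first anticodon base (33.2%, 32.6 to 33.8) and the second anticodon base (26.2%, 25.6 to 26.7). These pooled shares weigh each tRNA by its reads. Glu 3 alone gave 4471 of the 7516 reads at the former end. Gly 5 and Gly 10 gave 2885 and 626 of the 5918 reads at the latter. The last base before the anticodon had 17.6% and its first base 12.7%. Ends thus gathered in a window of 4 bases, and which of them was used differed between tRNAs.

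Long Glu-CTC fragments (7190 reads) stopped at 33 nt in 62.2% of cases, 2 bases before the anticodon, and 79.0% ended upstream of it. Asp-GTC (3327 reads) behaved alike, with 70.2% upstream and the maximum at 33 nt, as did His-GTG (572 reads, 81.8%) and Gly-GCC (490 reads, 83.9%). Gly-TCC of Gly 5 (5554 reads) ended instead within the anticodon, at its first or second base, in 62.9% of reads, with the maximum at 35 nt. Gly 10 gave 61.5% over 1247 reads, Cys-GCA of Cys 30 66.9% over 1187 and Ser-GCT 62.8% over 984. Gln-CTG of Gln 37 (646 reads) and Tyr-GTA (575 reads) reached the last anticodon base or beyond in 63.0% and 56.5%. These later ends touch the limit of the list. Below 40 nt the longest listed fragment was 35 nt for both Gly-TCC series and 37 nt for Gln and Tyr, which is also their most used length, and the list holds no sequence of 38 or 39 nt. Whether longer fragments of these tRNAs existed was not tested.

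**Figure D4:**
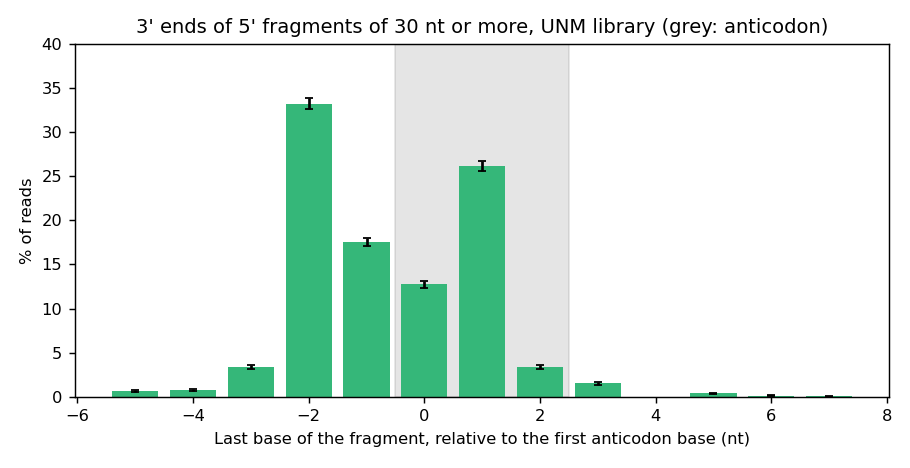
Share of 5′ fragments of 30 nt or more (vertical axis, in percent of 22621 reads, bars with exact 95% intervals) by the distance in nt of their last base from the first anticodon base, with the anticodon shaded. The bars at 2 bases before the anticodon (33.2%) and at its second base (26.2%) are the highest. Reads are pooled, so tRNAs with many long reads weigh most. The minimum of 30 nt and the lack of sequences of 38 or 39 nt limit the distances that can occur.

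Fragments of the 3′ side could be recognised only where they hold the T-arm motif, which short ones need not. Reads that hold the T-arm motif and were not 5′ numbered 1829 in 581 sequences, 0.266% of reads but 10.6% of sequences. By this count they weighed most within Thr (34.3% of its reads), Lys (30.3%), Trp (27.9%) and Ile (15.7%), groups with few reads in all. The most abundant long examples came from Thr-TGT with 121 reads and Trp-CCA with 53, shown with the motif in capitals.
Thr-TGT: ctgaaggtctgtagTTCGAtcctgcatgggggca
Trp-CCA: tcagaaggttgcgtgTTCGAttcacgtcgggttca
The CCA that closes a mature tRNA was almost absent. Of 1111 reads that end in CCA, 866 were 5′ fragments whose own sequence contains these letters, led by a 14-nt Gly-TCC fragment with 600 reads. Of the other 245 reads, 235 were also listed with a further base after CCA, and 175 came from Gln. Only 10 reads in 8 sequences, 0.00146% of the library, ended in a CCA that was never followed by another base. No source used here names the mapping reference, so whether it held the added CCA was not tested, and these counts are given only as a property of the list.

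Isoacceptor balance was examined in the 14 amino acids with more than 1 listed anticodon. In 6 of them a single anticodon held over 90% of reads: Glu-CTC (95.01%), Gly-TCC (95.4%), Gln-CTG (92.5%), Asp-GTC (91.1%), Cys-GCA (99.9%) and Thr-TGT (96.5%). Ser was led by Ser-TGA with 79.3%, ahead of Ser-AGA with 11.5%, Ser-GCT with 6.27%, Ser-CGA with 2.87% and Ser-GGA with 0.0393%. Pro-TGG held 72.9% of Pro, Val-AAC 67.4% of Val and Arg-TCG 62.5% of Arg. No anticodon reached 50% in Leu, with Leu-CAG at 37.9% and Leu-AAG at 29.8%, or in Ala, and Lys was split into Lys-CTT with 58.98% and Lys-TTT with 41.02%. Over the library, 12 anticodons with more than 1% of reads each held 93.4%, and 8 had under 100 reads: Ile-AAT 99, Asn-GTT 67, Ser-GGA 55, Thr-CGT 43, Ile-TAT 16, Thr-AGT 8, Thr-GGT 3 and Cys-ACA 3.

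These labels are exact only where the sequence fits 1 tRNA. A read was called resolved when all listed sequences of the 3 stages that contain it carry the same anticodon, and 82.1% of reads were. The 361 UNM sequences that could belong to more than 1 anticodon held 122723 reads, 92.3% of them Ala, and nearly all of these, 112841, were the Ala fragments of 13 and 14 nt. For the amino acid the label was unambiguous in 99.97% of reads. The anticodon of the most abundant sequence of the library therefore cannot be read from it.

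In Ala the shares depend on which reads are counted. Over all reads the labels gave 43.9% Ala-AGC, 41.3% Ala-TGC and 14.8% Ala-CGC. Over resolved reads they gave 15.97% (15.8 to 16.1), 63.1% (62.8 to 63.3) and 20.98% (20.8 to 21.2). In Ala 1, the forms of Ala-AGC and Ala-TGC first differ at position 15 by G15A, written from Ala-AGC to Ala-TGC. Their 16-nt forms are shown with that base in capitals.
Ala-AGC: ggggatgtagctcaGa
Ala-TGC: ggggatgtagctcaAa
The former had 58 reads and the latter 62222. Of the 33549 resolved Ala-AGC reads only 140 (0.417%) were 5′ fragments, and most of the others were the 14-nt fragment of Ala 6 with its 23849 reads, whereas 99.96% of resolved Ala-TGC and 99.7% of resolved Ala-CGC reads were 5′. Among resolved 5′ Ala reads, Ala-TGC held 75.03%, Ala-CGC 24.9% and Ala-AGC 0.0793%. The 13- and 14-nt reads of Ala 1 (28266 and 77576) fit both anticodons and cannot be resolved, while Ala 6 reads of these lengths are resolved. The resolved shares thus leave out the shortest 5′ fragments of Ala 1. They do not give the full 5′ share of Ala-AGC.

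Other labels with few resolved reads were Asp-ATC with 0 of 751, Pro-AGG with 7 of 212, Leu-AAG with 136 of 1525, Ser-CGA with 977 of 4026 and Lys-CTT with 138 of 325. Shares of these anticodons rest on sequences that they have in common with another isoacceptor. Resolved reads left Ser-TGA (80.99%), Glu-CTC (95.01%), Gly-TCC (95.5%) and Gln-CTG (92.5%) nearly where they were. They gave Leu-CAG 56.4% of Leu in place of 37.9% and Leu-AAG 3.96% in place of 29.8%, and turned the order in Lys, where Lys-TTT had 61.3% against 41.02% over all reads.

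**Figure D5:**
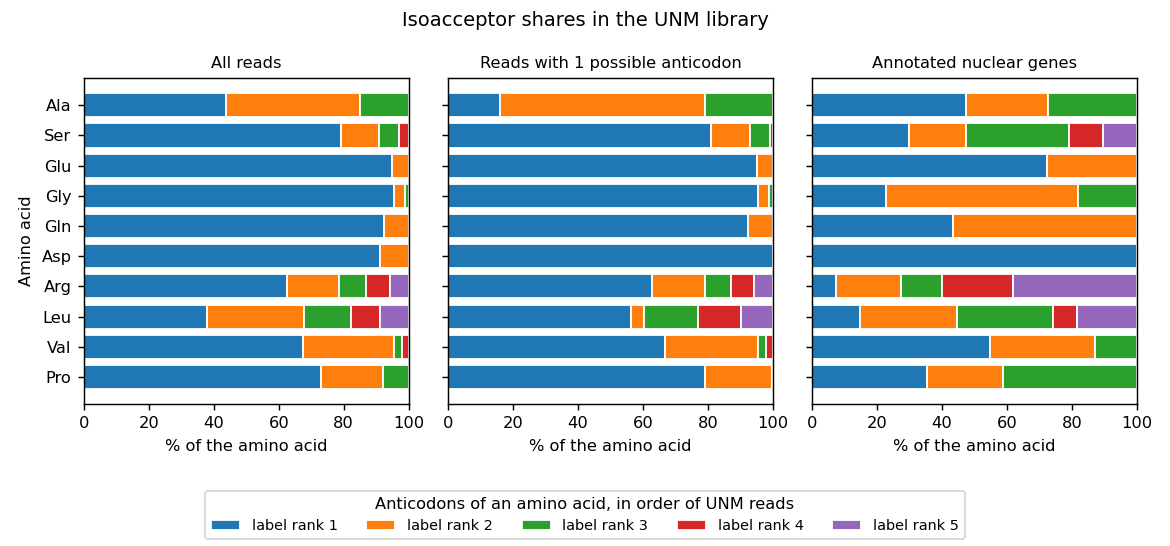
Share of each anticodon in its amino acid, in percent, for all reads, for reads with 1 possible anticodon and for annotated nuclear tRNA genes, with colours following the order of UNM reads within the amino acid. A single colour fills the Glu, Gly and Gln bars of reads, the Ala bar changes between the first and the second panel, and the gene bars of Glu, Gly and Gln are more even than their read bars.

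Isoacceptor shares were set beside the number of annotated nuclear genes, from a RefSeq gene table of assembly ASM3414082v1 in which 651 of 651 tRNA genes matched an anticodon. Reads were not traced to single genes. Gly-TCC had 41873 reads with 10 annotated genes, and Gly-GCC 1440 reads with 26. Arg-TCG held 62.5% of Arg reads with 4 genes, and Arg-ACG 5.84% with 21. Asn-GTT had 67 reads with 31 genes. Other isoacceptors followed gene number, as Glu-CTC with 104399 reads and 26 genes against Glu-TTC with 5485 reads and 10 genes. Across the 48 anticodons with a nuclear gene, the Spearman correlation of reads with genes was 0.269, a description over anticodons that share 1 library and its multi-matching reads. The assembly is not tied to the cultivar by any source used here, and copies in organelles were not counted.

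Isoacceptors also differed in form. Gly-GCC fragments had their maximum at 22 nt (22.8%) and 38.1% at 30 nt or more, while Gly-TCC peaked at 18 nt with 16.6% long. Pro-CGG was 57.8% long and Pro-TGG 0.984%. Ser-GCT was 13.1% long and Ser-TGA 0.0639%. Leu-CAA (22.7%) and Leu-TAA (21.3%) had many long reads, and Leu-CAG (2.11%) and Leu-AAG (0.656%) few. The share of long fragments thus differed between isoacceptors of the same amino acid in Gly, Pro, Ser and Leu, in this 1 library, with nuclear and organellar tRNAs of a label not separated.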

How the data were processed

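The deposited counts are raw whole numbers of reads, 1 value for each distinct sequence, per the file headers and values. Each list gives the anticodon, the sequence and a count. The submitters' processing notes name Bowtie 1.1.2. Its reference, its options and the trimming were not given in the sources used here. RNA was extracted by a column kit, per the labels' protocols, and the label gives 13 to 40 nt for UNM. The UNM list was the only source of reads. The BCP and TCP lists served only for which sequences they list, for their anticodon labels and for the position of an anticodon.

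Each anticodon was translated to its amino acid with the standard code. Series joined sequences of 1 amino acid with the same first 13 bases, and shorter sequences joined only where they opened exactly 1 series. The anticodon was located as its label after a T at positions 32 to 38 of sequences of at least 36 nt. Positions count from the first base of the mature tRNA without structural numbering. At 100 reads a share is known to within 10.2 percentage points, at 10000 to within 0.985. Since no molecular identifiers are named, reads may be copies of 1 molecule, and intervals cover counting error only. Alternatives changed the read minimum, the length range, the series key and the placement rule, and left out the most abundant sequence.

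The text names the amino acid groups, the 10 largest series, the most abundant sequence of each group, the leading long and unplaced sequences and the leading one ending in CCA. Other series and anticodons were named after their values were seen. The members, lists and rules were chosen with earlier results of these data known. Python 3.11.15, pandas 2.3.3, scipy 1.17.1 and matplotlib 3.10.9 were used.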

Additional observations from a re-analysis of the deposited data

How the results depend on the processing

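With sequences of 13 nt or more only, or series joined by their first 10 bases where that applied, no summary moved beyond its counting interval. With only sequences of at least 10 reads, the Ala share was 47.7%, the 10 largest series held 86.3%, the most used 3′ ends 53.99% and 5′ placement 82.8%. In that setting 19 groups in place of 20 were led by reads of at most 20 nt, as Asn, whose largest sequence has 8 reads, drops out. Amino acids with more than 1 anticodon left and 1 above 90% were 4 in place of 6. Without the most abundant sequence the Ala share was 40.4%, the 10 largest series held 83.2%, the most used 3′ ends 58.0% (58.003%) and 5′ placement 79.6%. With each distinct sequence counted once, the largest group was Ser with 13.2%, the 10 largest series held 4.77%, the most used ends 33.8% and 5′ placement 22.3%, and 2 amino acids in place of 6 had an anticodon above 90%. Series joined by 16 bases gave 81.7% for the 10 largest and 67.8% for the most used ends. Placement was 82.6% with the motif also 1 base further. In alternatives chosen after seeing the data, it was 84.3% with only the T and A of the motif and 86.8% with whole series placed, and the Ala share of resolved reads was 37.2%. Over resolved reads 4 amino acids in place of 6 had 1 of several anticodons above 90%, since Asp and Cys then kept only 1 anticodon each. The count of sequences that hold 50% of reads stayed at 6 in each alternative tried. Shares of groups under 1000 reads, such as Lys, Trp, Ile and Asn, and ends at 36 nt or more are limited by depth and by the lengths listed. No paired analysis was possible because each stage has 1 library and no result comes from a test.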
